A study of Mus musculus with 9 samples.

Results

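HPC7 cells are immature mouse blood progenitors kept as a line, which was made by forced expression of the LIM homeobox factor Lhx2 and which grows in stem cell factor, the ligand of the receptor Kit. The levels described here come from the 3 libraries of HPC7 cells that carried the empty vector, out of 9 RNA sequencing libraries in the series. They were chosen by their sample labels alone, and no other group was compared with them. The cells had been infected with an empty murine stem cell retrovirus that also makes green fluorescent protein, were sorted for fluorescence 1 week later, and grew in RPMI medium with 10% fetal calf serum, 0.05 mM 2-mercaptoethanol and 100 ng/ml stem cell factor. The 3 empty-vector samples therefore share the Lhx2 background, the virus, the sort and the growth factor, and none is an untransduced culture. They are described as a line in culture and not as a tissue, and the labels do not say whether the replicates were separate transductions or cultures. Spreads between replicates are thus spreads between libraries, which may be technical.

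Blood progenitors are held in an immature state by a set of transcription factors, among them Gata2, Tal1, Lyl1, Lmo2, Ldb1, Runx1, Erg and Fli1, which can bind together at shared enhancers. Exit towards the myeloid lineages is tied to PU.1 (encoded by Spi1) and the C/EBP factors, and exit towards erythroid cells and megakaryocytes to Gata1 with its cofactor Fog1 (Zfpm1). Myeloid progenitors load their first granules with myeloperoxidase and serine proteases before they make the later granule proteins of neutrophils, while mast cell progenitors load theirs with carboxypeptidase A3 and chymases.

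The libraries held 19374719, 20194632 and 18332451 counts over 27179 genes in replicates 1, 2 and 3. Levels are given as counts divided by gene length and scaled to a sum of 1000000 in each library (TPM), so that genes can be ranked against each other. A gene was counted as expressed at 1 TPM or more in every library with over 3 counts in at least 1, and a gene at 0 counts is compatible with up to 3 counts, which for a gene of 1 kb is 0.357, 0.359 and 0.406 TPM in replicates 1, 2 and 3. That limit covers counting error only, because copies made by PCR are not independent molecules. In bulk RNA, a low level in every cell and a higher level in a few cells cannot be told apart, and this holds for every level below.

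Replicate 1 stood apart. Among 9876 genes with at least 100 counts in each library, 8 were over 5 times higher in it, as a share of the library's counts, than in the mean of the others. They were the mitochondrial ribosomal RNAs mt-Rnr1 and mt-Rnr2, the leucyl-tRNA synthetase gene Lars2 and 5 genes with no symbol in the tables used. Together they took 9.76% of summed TPM in replicate 1, against 1.15% in replicate 2 and 0.597% in replicate 3. Of the 364 expressed genes of the lists below, 256 read lowest in replicate 1 on the TPM scale, and 145 did when TPM was computed without ribosomal RNA, Lars2 and unnamed genes. On that second scale Kit for example stood at 1790, 1769 and 1769 TPM in place of 1590, 1724 and 1735. Across the 11508 expressed genes, log2 TPM correlated between libraries at Pearson r = 0.990 to 0.994, a description across genes, which are not independent replicates.

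The 5 markers of the line were all expressed, as were 49.9% of nuclear protein-coding genes. The markers were chosen with earlier results of these data known, so their expression is no test of the label. Myeloperoxidase (Mpo), the haem enzyme of primary granules, stood at 4680, 5150 and 4689 TPM (mean 4840 ± 269 SD, n = 3) and ranked 2 among 20970 nuclear protein-coding genes. The surface sialomucin gene Cd34 stood at 1860, 2007 and 2034 TPM (mean 1967 ± 93.4 SD, n = 3) and ranked 17. The stem cell factor receptor gene Kit stood at 1590, 1724 and 1735 TPM (mean 1683 ± 80.9 SD, n = 3) and ranked 28. On this scale replicate 1 was the lowest for Cd34 and Kit and the others lay close together, while for Mpo replicate 2 was the highest. Without ribosomal RNA, Lars2 and unnamed genes, replicate 1 was instead the highest for Cd34 (2094, 2060 and 2073 TPM) and for Kit (1790, 1769 and 1769). Gata2, the zinc finger factor of stem and mast cell progenitors, stood at 190.8, 194.8 and 190.1 TPM (mean 191.9 ± 2.54 SD, n = 3). Lhx2 stood at 42.1, 44.4 and 43.1 TPM (mean 43.2 ± 1.18 SD, n = 3), ranked 5001, and was the lowest of the 5 markers in each library. On the deposited lengths the 5 markers did not overlap each other in level. The order of Cd34 and Kit depends on length, and by counts Kit was higher (66450 to 74583 against 39393 to 43921). With the longest GENCODE transcript as length their means were 2173 ± 16.9 TPM for Cd34 and 2148 ± 9.66 for Kit. Reads of Lhx2 can come from the cell's own gene or from the virus used to make the line, and counts per gene cannot tell these apart. Without replicate 1 the means were 4920 TPM for Mpo, 2020 for Cd34, 1729 for Kit, 192.4 for Gata2 and 43.8 for Lhx2, each within 1 SD of the mean of all 3 libraries.

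The proximal promoters of Mpo, Cpa3, Cd34, Kit and Gata2 are shown because these high genes of the line differ in their content of CG dinucleotides, which mark CpG islands when dense. Each line holds the 250 bases before the RefSeq start site on GRCm38.p6, written 5′ to 3′ in lower case with each CG in capitals. They lie at chr11:87793534-87793783, plus strand (Mpo), chr3:20242182-20242431, minus strand (Cpa3), chr1:194938571-194938820, plus strand (Cd34), chr5:75574737-75574986, plus strand (Kit) and chr6:88193641-88193890, plus strand (Gata2).

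Mpo: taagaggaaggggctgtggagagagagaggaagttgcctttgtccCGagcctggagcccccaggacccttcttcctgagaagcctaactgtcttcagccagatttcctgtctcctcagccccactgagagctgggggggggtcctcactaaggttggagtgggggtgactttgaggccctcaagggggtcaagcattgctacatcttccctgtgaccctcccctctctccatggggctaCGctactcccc
Cpa3: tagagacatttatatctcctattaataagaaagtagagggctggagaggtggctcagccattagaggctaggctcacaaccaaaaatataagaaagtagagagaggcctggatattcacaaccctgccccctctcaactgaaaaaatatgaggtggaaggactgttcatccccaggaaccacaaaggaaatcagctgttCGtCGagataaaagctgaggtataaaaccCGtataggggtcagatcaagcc
Cd34: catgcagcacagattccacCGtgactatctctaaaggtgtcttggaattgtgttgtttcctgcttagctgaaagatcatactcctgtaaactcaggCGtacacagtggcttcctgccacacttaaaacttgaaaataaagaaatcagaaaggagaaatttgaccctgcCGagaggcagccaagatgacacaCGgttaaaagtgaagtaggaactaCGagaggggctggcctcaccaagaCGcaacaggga
Kit: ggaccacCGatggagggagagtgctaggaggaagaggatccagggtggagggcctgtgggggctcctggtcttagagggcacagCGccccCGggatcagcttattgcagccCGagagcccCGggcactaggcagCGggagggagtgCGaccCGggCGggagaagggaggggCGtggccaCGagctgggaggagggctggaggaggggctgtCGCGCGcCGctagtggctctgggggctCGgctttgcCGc
Gata2: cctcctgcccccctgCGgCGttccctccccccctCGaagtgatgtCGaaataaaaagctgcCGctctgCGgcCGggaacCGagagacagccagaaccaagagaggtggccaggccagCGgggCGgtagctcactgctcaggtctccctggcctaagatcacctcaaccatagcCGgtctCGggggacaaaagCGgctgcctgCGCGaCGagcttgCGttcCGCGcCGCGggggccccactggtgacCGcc

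The windows of Mpo and Cpa3, the highest pair by TPM among nuclear protein-coding genes, held 2 and 3 CG dinucleotides. The Cd34 window held 6, the Kit window 17 and the Gata2 window 22. The window of Cpa3, which encodes mast cell carboxypeptidase A3, held TATAAA 2 times counting both strands, once starting 31 bases before its start site, and the GATA element, AGATAA, 1 time, starting 46 bases before it. Neither was found in the other windows shown, on either strand. A window was on hand for 16784 of the 20970 nuclear protein-coding genes, and Spi1 was not among them. CG content rose with level up to a point. The median was 3 CG in the 5763 promoters of genes at 0 counts, 12 at 1 to 10 TPM, 17 at 10 to 100 TPM and 17 at 100 to 1000 TPM. In the 43 promoters of genes at 1000 TPM and over it was 13. The TATA element, on either strand, was in 22.1% of promoters of genes at 0 counts, 5.47% at 10 to 100 TPM and 20.9% at 1000 TPM and over, against 12.2% of all promoters. The GATA element was in 13.8%, 5.72% and 2.33% of the same classes, against 9% of all. The last class holds only 43 promoters, Cpa3 with its GATA element among them. The ETS element CCGGAAG was in 2.01%, 16.3% and 16.3% of these classes, against 9.37% of all. Their median share of G and C bases was 47.6%, 60.4% and 54.4%, and whether base content accounts for the element shares was not tested. These matches describe the letters of the windows and are no evidence of a factor at the site.

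**Figure D1:**
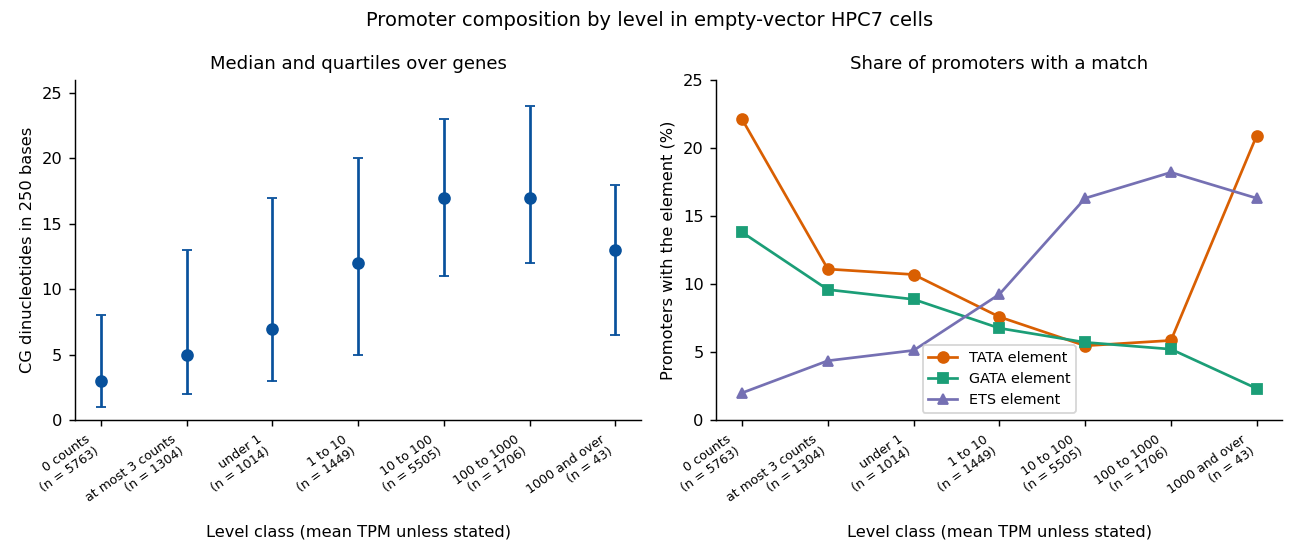
The left panel shows the median number of CG dinucleotides (points) with quartiles over genes (bars) in the 250 bases before the start site, by level class, and the right panel shows the percent of promoters with a TATA, GATA or ETS element on either strand. The CG median goes from 3 in genes at 0 counts to 17 in genes at 10 to 1000 TPM and is 13 in the 43 genes at 1000 TPM and over, where the TATA share is 20.9%.

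In all, 11526 genes reached 1 TPM in every library, and 11508 of them had over 3 counts in at least 1. At the other end 10998 genes (40.5% of the table) had 0 counts in all 3 libraries. Of the nuclear protein-coding genes, 10464 of 20970 (49.9%) were expressed, and their median over expressed genes was 40.7 TPM. Another 7285 (34.7%) had 0 counts. The median over all 20970 was 1.26 TPM, and this is the level beside which the list medians below may be read. The shares of 49.9% and 34.7% stand in the same way beside the list counts of expressed genes and of genes at 0 counts. Most expressed genes of the whole table, 7061 of 11508, lay between 10 and 100 TPM, and 80 lay above 1000. The 100 highest genes took 28.4%, 20.9% and 20.6% of summed TPM (mean 23.3% ± 4.41 SD, n = 3), highest in replicate 1.

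The head of the ranking joined household genes with genes of the blood progenitor. Among nuclear protein-coding genes Cpa3 stood first at 4694, 5320 and 4750 TPM (mean 4922 ± 347 SD, n = 3). It exceeded Mpo in each library, by a ratio of 1.003, 1.033 and 1.013, but the ranges of both genes overlapped, and by counts Mpo was the higher (88236 to 109484 against 51013 to 64547), since its deposited length is 2546 bases against 1453 for Cpa3. Next came the chaperone gene Hsp90ab1 (4513 ± 226 TPM, SD, n = 3) and the translation factor gene Eef1a1 (3760 ± 385). Serglycin (Srgn), the proteoglycan core that packs granule proteins, stood at 1923, 2078 and 2129 TPM. The interferon-induced membrane protein genes Ifitm1 (2061 ± 192 TPM) and Ifitm2 (1753 ± 159) also lay among the 25 highest of this ranking. As they are near copies, their reads may be split unevenly. The lysosomal protease gene Ctsd (1344 ± 96.4 TPM) and the blood-cell GTPase inhibitor gene Arhgdib (1371 ± 153) were also in that group. Lars2 was among the 25 through replicate 1 alone, at 2900 TPM there against 509.2 and 552 in the others.

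The stem and progenitor factors were nearly all expressed. Of 34 listed, 29 passed 1 TPM in every library and 5 had 0 counts, with a median of 84.5 TPM over the list. Myb, a factor needed for progenitor growth, led at 528, 580.1 and 583.8 TPM (mean 564 ± 31.3 SD, n = 3). Ldb1, the bridging protein of LIM domain complexes, stood at 459.5, 505.8 and 537 TPM (mean 500.8 ± 39 SD), and its ranges overlapped with Myb and with the bHLH factor Lyl1 (448.3 ± 37.6). Lyl1 lies within the span of another gene, Nfix, so its reads are less certain. Tal1, a bHLH factor related to Lyl1, stood at 209.9, 243.6 and 244.2 TPM (mean 232.5 ± 19.6 SD). In Myb, Ldb1, Lyl1 and Tal1 replicate 1 was the lowest of the 3 libraries, as in 256 of the 364 expressed list genes on the TPM scale.

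Further factors covered a wide range. Lmo2, the LIM-only bridge between Tal1 and Gata factors, stood at 76.8, 83 and 93.4 TPM (mean 84.4 ± 8.37 SD, n = 3). The ETS factor Erg had a mean of 182.7 ± 20.5 TPM and its relative Fli1 68.3 ± 7.76. Meis1, the homeobox partner of Hox proteins, had a mean of 78.5 TPM, and Hhex, a homeobox factor of early haematopoiesis, 176.6. Mecom, a factor of long-term stem cells, was near the threshold at 1.34 TPM, and Hlf, another such factor, stood at 17.6 TPM. Prdm16, Hoxa9, Nkx2-3 and Sox17 had 0 counts in all 3 libraries. Prdm16 acts in stem cells, and Hoxa9 is a myeloid progenitor factor.

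Within the family of GATA factors Gata2 predominated. It made up 85%, 83.6% and 83.2% of the family's summed TPM, followed by Gata1 (8.79% ± 0.873, SD, n = 3) and Gata3 (7.3% ± 0.33). Gata1, the erythroid and megakaryocyte factor, stood at 17.5, 21.9 and 21 TPM, and the ratio of Gata2 to Gata1 was 10.9, 8.88 and 9.07. Gata3, best known from T cells, lay at 16.2, 16.4 and 17.5 TPM. Gata1 and Gata3 overlapped in level, and Gata4, Gata5 and Gata6, which belong to heart and endoderm, had 0 counts. In the RUNX family, Runx3 (79.8 ± 1.24 TPM) lay above Runx1 (53.6 ± 2.06), and Runx1 above Runx2 (39.2 ± 3.59), with no overlap between neighbours. Runx1 is the family member required for the first blood stem cells.

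Spi1, the ETS factor that drives myeloid fate, stood at 150.4, 167.1 and 144.7 TPM (mean 154.1 ± 11.6 SD, n = 3), which was 7.71 ± 0.848 times the level of Gata1. Within the ETS list Elf1 (240.3 ± 13.9 TPM), Etv6 (203.7 ± 14.6) and Erg were higher than Spi1 by mean, and the range of Erg overlapped with Spi1. Ets1, a lymphoid and endothelial member, did not exceed 3 counts in any library, and Spib, a B cell and dendritic cell member, had 0 counts. The C/EBP factors of granulocytes were low by contrast. Cebpa, the factor that opens the granulocyte program, stood at 6.04, 6.54 and 5.18 TPM (mean 5.92 ± 0.687 SD). Cebpe, needed for late granules, stood at 2.21, 1.94 and 3.06 TPM, and Cebpb, of emergency granulopoiesis, at 1.11, 0.796 and 0.81. Of the summed level of the genes listed by a Cebp symbol, 53.7% was instead Cebpg and 41.5% Cebpz, both widely expressed. That list went by symbol, and Cebpz is not a C/EBP factor by its protein type.

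Myeloid factors as a list covered a wide range. Of 27 listed, 21 were expressed, with a median of 8.2 TPM. Irf8, the monocyte and dendritic cell factor, had a mean of 1.71 ± 0.142 TPM, while Klf4, Irf4, Maf and Tfec, factors of monocytes and macrophages, had 0 counts. Id2 and Id1, inhibitors of bHLH proteins, were high but uneven. Id2 stood at 323.1, 195.7 and 228.8 TPM, and Id1 at 103.8, 63.4 and 47.8. Both were highest in replicate 1, where the genes named above also stood apart.

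Erythroid factors were present with few erythroid products. Of 12 listed factors 11 were expressed, among them Nfe2 (285.3 ± 18.6 TPM, SD, n = 3), the Gata1 cofactor gene Zfpm1 (153.1 ± 9.67) and the repressor gene Gfi1b (94 ± 8.05). Klf1, the factor that switches on adult globin, stood at 1.74 TPM, and Klf3 did not exceed 3 counts. Among 26 matched genes of erythroid cells, 7 were expressed, 7 had at most 3 counts and 7 had 0 counts, with a median of 0.0634 TPM. The 7 at 0 counts were the globin genes Hba-a1, Hba-a2, Hba-x, Hbb-bs, Hbb-b1, Hbb-y and Hbb-bh1, several of which are near copies of each other. The transferrin receptor gene Tfrc, which dividing cells also need, stood at 329.9, 368.6 and 379.7 TPM, and the erythropoietin receptor gene Epor at 16.7, 19.3 and 20.3 TPM.

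**Figure D2:**
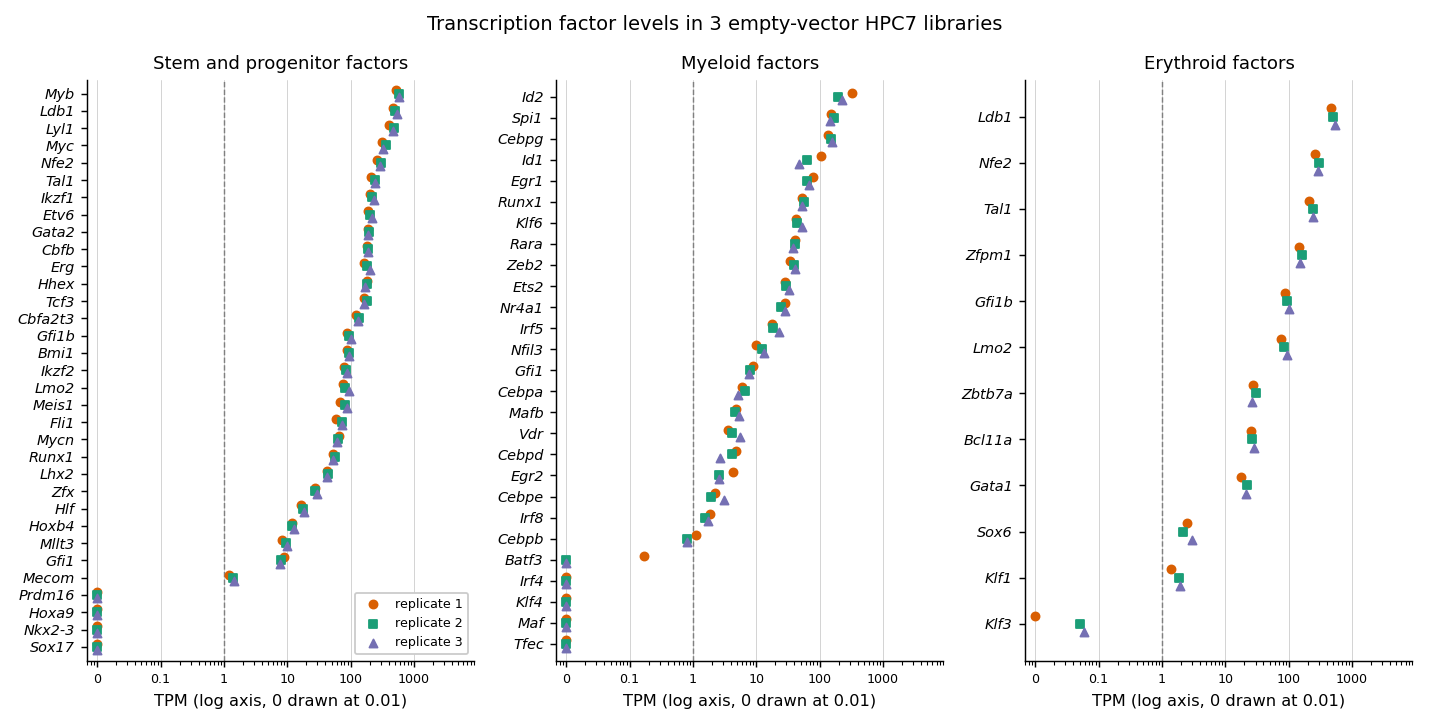
Levels of 3 lists of transcription factors in TPM on a log axis, with 1 symbol for each library, genes ordered by mean, the dashed line at 1 TPM, and 0 drawn at 0.01. The stem and progenitor factors lie mostly above 10 TPM with 4 of the genes drawn at 0. Spi1 lies at 144.7 to 167.1 TPM while Cebpa, Cebpe and Cebpb lie under 7 TPM. Replicate 1 is the lowest for most of the high factors, as for most expressed list genes on the TPM scale.

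Granule genes separated into a high primary set and a low late set. Of 23 primary granule genes 20 were expressed and 3 had 0 counts, with a median of 58.2 TPM. Of 28 late neutrophil genes 5 were expressed, 14 had 0 counts and the median was 0.0258 TPM. The summed level was 11390 ± 573 TPM for the primary list and 197.7 ± 10.7 for the late list (SD, n = 3). Mpo and Srgn made up most of the first. Next came Igfbp4, the gene of a secreted binding protein for insulin-like growth factors (1126 ± 96.3 TPM), the calcium-binding chaperone gene Calr (843.1 ± 46.5), Nkg7 (603.3 ± 52.3) and the granule membrane gene Cd63 (585.9 ± 32). Other cells make Calr and Cd63 too.

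The azurophil serine proteases parted from Mpo. Elane, which encodes neutrophil elastase, had 0 counts in all 3 libraries, as did the cathepsin G gene Ctsg and the gene Bpi for a bactericidal protein. Taking the limit of 3 counts in each library, Mpo was at least 10630-fold higher than Elane and at least 11580-fold higher than Ctsg per length. Prtn3, the proteinase 3 gene that lies beside Elane on chromosome 10, was expressed at a mean of 40.5 TPM, and Mpo exceeded it 112.2, 124 and 122.5 times. The progenitor granule genes Prss57 (7.01 TPM) and Ms4a3 (3.52 TPM) were low, and Prss57 overlaps the span of 2 other genes. Elane and Ctsg did collect counts in 3 and 2 of the 6 other libraries of the series, so their rows can hold reads. That was used as a check of the rows only.

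Of the late neutrophil genes, the highest were the phospholipid-binding protein gene Anxa1 (134.3 ± 13.7 TPM, SD, n = 3) and the G-CSF receptor gene Csf3r. Csf3r stood at 43.6, 43.2 and 47.6 TPM. Among the 14 genes at 0 counts were the calprotectin genes S100a8 and S100a9, the neutrophil granule protein gene Ngp, the collagenase gene Mmp8, the chitinase-like gene Chil3, the formyl peptide receptor genes Fpr1 and Fpr2 and the surface gene Ly6g. Lactoferrin (Ltf) stood at 0.737, 1.4 and 1.53 TPM and the lipocalin Lcn2 at a mean of 0.625 TPM. Camp, the cathelicidin gene, did not exceed 3 counts.

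Parts of the phagocyte oxidase, which makes superoxide, were expressed without its catalytic subunit. Cyba, the smaller membrane subunit, stood at 242.2, 283.1 and 250.1 TPM. The cytosolic subunit genes Ncf4 (22.8 ± 1.81 TPM, SD, n = 3) and Ncf1 (8.69 ± 1.51) were lower, and the GTPase genes Rac1 and Rac2 were at 357.8 and 379 TPM. Cybb, which encodes the catalytic subunit gp91phox, did not exceed 3 counts in any library.

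The mast cell list held very high genes as well as genes at 0 counts. Of 23 genes 11 were expressed and 5 had 0 counts, with a median of 0.791 TPM. Over all nuclear protein-coding genes 49.9% were expressed and 34.7% had 0 counts, with a median of 1.26 TPM. Beside Cpa3, Srgn and Kit, the vesicular amine transporter gene Slc18a2 stood at 191, 211.6 and 215.2 TPM and the prostaglandin D synthase gene Hpgds at 34.5, 35.8 and 40.7. Fcer1g, the shared gamma chain of Fc receptors, had a mean of 270 ± 19.1 TPM (SD, n = 3). The alpha chain of the IgE receptor, Fcer1a, had 0 counts, and its beta chain, Ms4a2, stood at 0.791 TPM. Histidine decarboxylase (Hdc), which makes histamine, stood at 7.41 TPM, and the mast cell factor Mitf at 4.37. The protease genes Mcpt1, Mcpt2 and Mcpt8 had 0 counts, Mcpt4 and Tpsab1 did not exceed 3 counts, and Cma1 and Tpsb2 stood at 0.422 and 0.34 TPM. The proteases of these families resemble each other, so single members are uncertain.

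**Figure D3:**
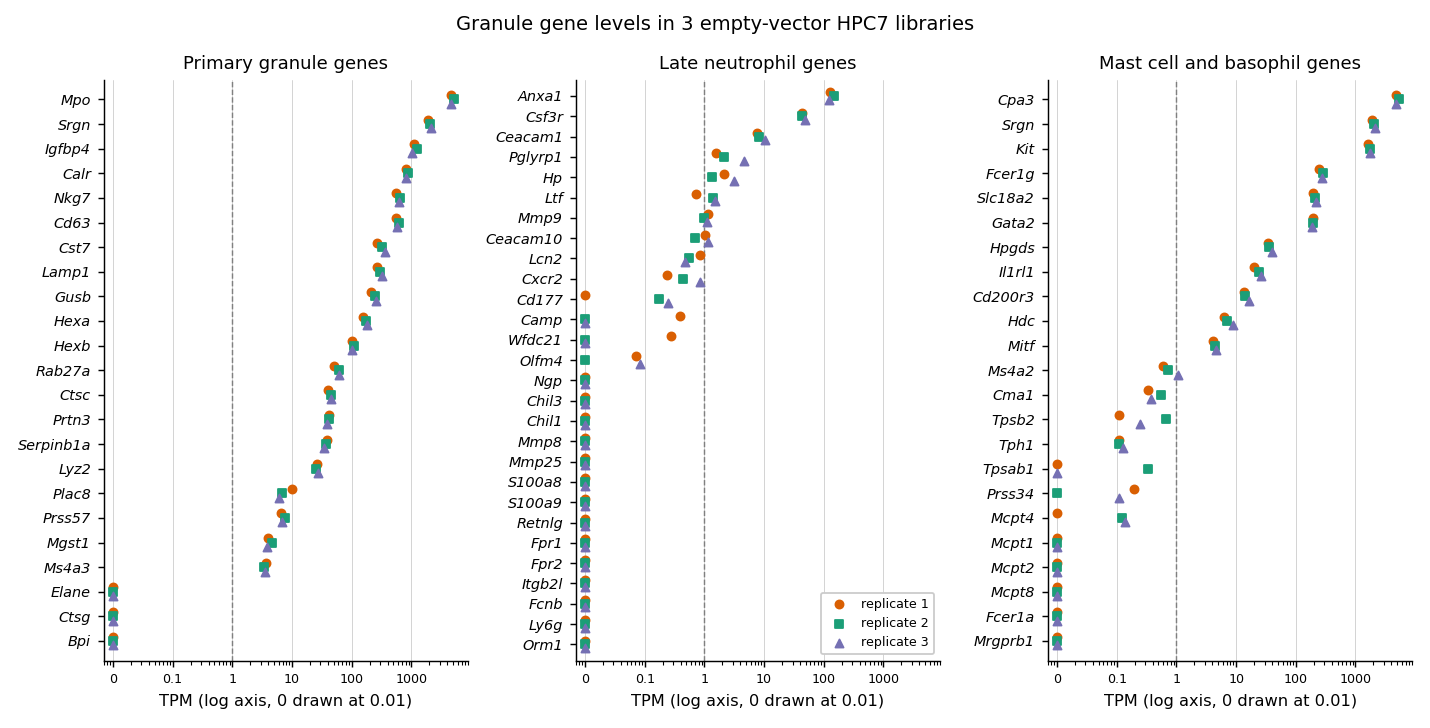
Levels of primary granule, late neutrophil, and mast cell and basophil genes in TPM on a log axis, with 1 symbol for each library, genes ordered by mean, the dashed line at 1 TPM, and 0 drawn at 0.01. Mpo and Cpa3 lie at 4680 to 5320 TPM, while Elane, Ctsg, Bpi, 14 late neutrophil genes and 5 mast cell genes lie at 0 in all 3 libraries.

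Of 22 genes of megakaryocytes and platelets 14 were expressed, with a median of 7.97 TPM over the list. Over all nuclear protein-coding genes 49.9% were expressed, with a median of 1.26 TPM. Itga2b and Itgb3, the chains of the fibrinogen receptor, stood at 343.8, 395.7 and 419.5 TPM and at 214, 246.1 and 262.7 TPM. The chemokine gene Pf4, a platelet granule product, stood at 248.5, 293.9 and 363.1 TPM. Each was lowest in replicate 1, as were most expressed list genes on the TPM scale, and highest in replicate 3. Itga2b, Pf4 and the gene before them, Plek (441.8 ± 35.8 TPM), overlapped with their neighbours in level. The thrombin receptor gene F2r (246.8 ± 25.3 TPM, SD, n = 3) overlapped with Itgb3. Other platelet genes ranged widely. Rab27b and Nbeal2, genes of granule formation and release, had means of 103.1 and 99.9 TPM, and Treml1, Gp9 and Gp1ba had 42.7, 32.4 and 11.6. The tubulin gene Tubb1, the lectin receptor gene Clec1b and Gp1bb did not exceed 3 counts, Gp6, Thbs1 and Mef2c had 0 counts, and the von Willebrand factor gene Vwf stood at 0.273 TPM.

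Of 55 cytokine and growth factor receptors 40 were expressed, with a median of 20.8 TPM. Kit was the highest by far, and Il2rg and Pdgfrb lay far below it without separation from each other. Il2rg, the common gamma chain, stood at 216.6, 236.6 and 242.7 TPM. Pdgfrb, a receptor better known from stromal cells, stood at 201, 231 and 245.4 TPM, while its partner Pdgfra did not exceed 3 counts. The common beta chain gene Csf2rb stood at 90.2, 97.2 and 109.6 TPM, with reads possibly shared with its copy Csf2rb2. Among its alpha chains, the IL-3 receptor gene Il3ra had a mean of 42.6 TPM, the IL-5 receptor gene Il5ra 7.71 and the GM-CSF receptor gene Csf2ra 0.693.

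Receptors that guide progenitors to other fates were lower. Flt3, a receptor of multipotent and lymphoid progenitors, stood at 20.4, 20.4 and 16.2 TPM, and Kit exceeded it 78, 84.6 and 107.1 times. Csf1r, the macrophage growth factor receptor, stood at 1.31 TPM and its level in replicate 1 was close to the threshold. The IL-7 receptor gene Il7r, the LIF and oncostatin receptor genes Lifr and Osmr, the angiopoietin receptor gene Tek and the BMP receptor gene Bmpr1a had 0 counts. Tgfbr1 and Tgfbr2, the TGF-beta receptor chains, were at 97.5 and 103.3 TPM. Il9r had a mean of 62.1 TPM and Il6ra 56.1 TPM.

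**Figure D4:**
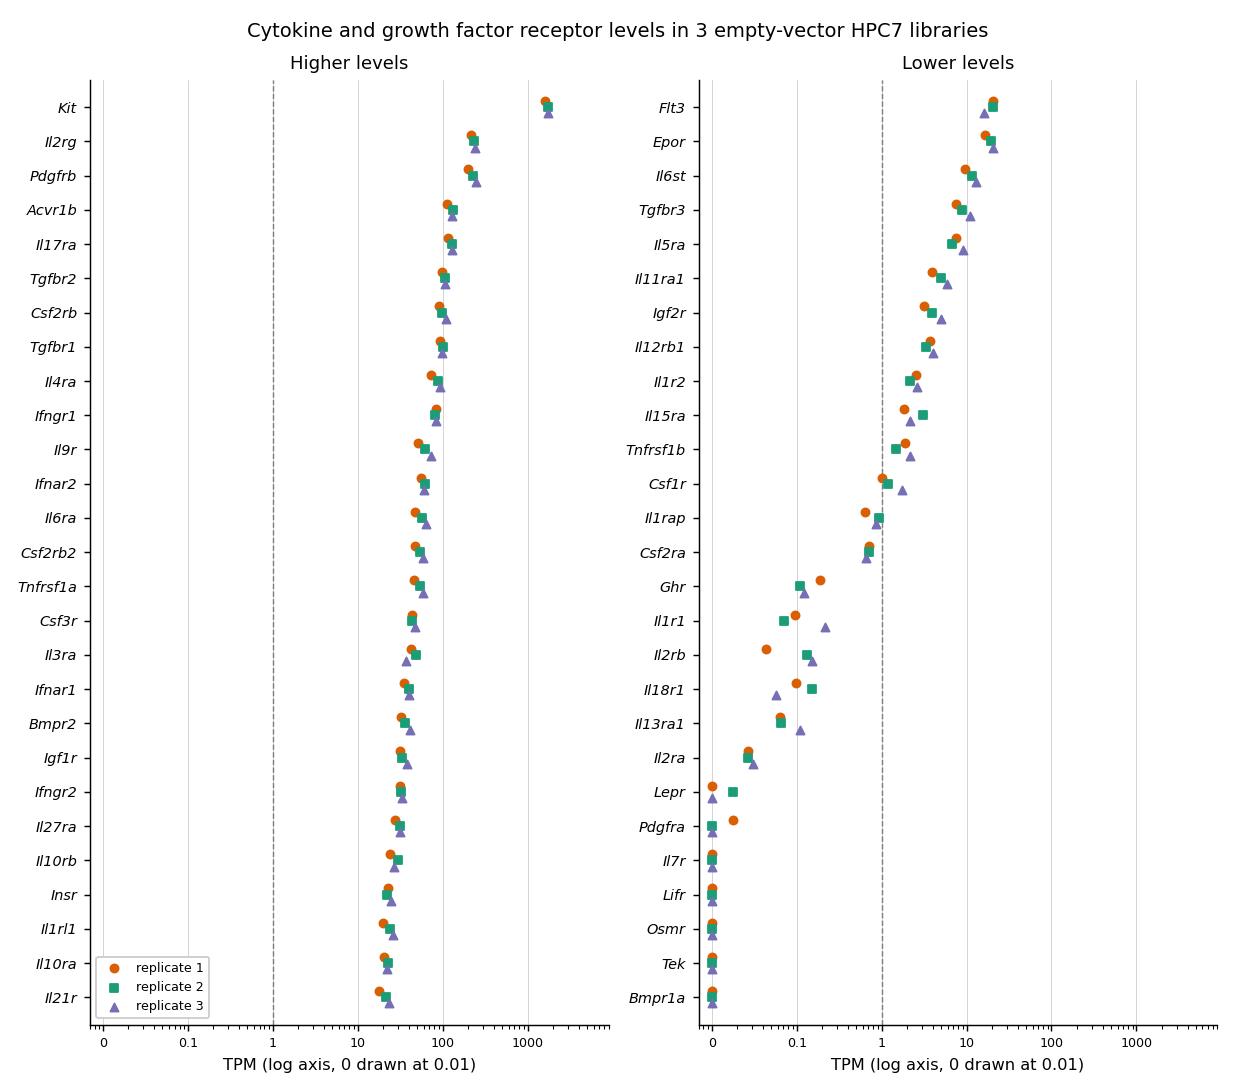
Levels of cytokine and growth factor receptor genes in TPM on a log axis, with 1 symbol for each library, ordered by mean over both panels, the dashed line at 1 TPM, and 0 drawn at 0.01. Kit lies at 1590 to 1735 TPM, Il2rg and Pdgfrb overlap between 201 and 245.4 TPM, and 5 receptors lie at 0.

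Of the 27 genes in the Kit signalling list, which holds Kit and its ligand as well as genes that act below the receptor, 26 were expressed, with a median of 67.8 TPM. The exception was Kitl, the gene of its ligand, at 0 counts, so that Kit was at least 23300-fold higher than Kitl per length. Among the highest were genes of the brakes on the receptor, the lipid phosphatase gene Inpp5d (368.3 ± 30.2 TPM, SD, n = 3), the tyrosine phosphatase gene Ptpn6 (316 ± 35.5) and the ERK phosphatase gene Dusp6 (323 ± 15.5). The adaptor gene Grb2 had a mean of 348.4 ± 23.4 TPM. Of the Janus kinases, Jak3, which pairs with the common gamma chain, stood at 338.5, 346.2 and 328.1 TPM, above Jak1 (222.3, 222.6 and 220.1) and Jak2 (59.4, 66.5 and 68.8) with no overlap. Stat3 (266.7 ± 19.4 TPM) was the highest STAT and made up 40% of the family's summed level, and Stat5a (144.2 ± 12) was next.

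Secreted ligands were expressed in 15 of 29 cases, with a median of 1.15 TPM, near the 49.9% and 1.26 TPM of all nuclear protein-coding genes. Tgfb1, a growth inhibitor of blood progenitors, was the highest at 448.2, 458.1 and 397.6 TPM. The monocyte chemokine gene Ccl2 stood at 159.3, 201.3 and 201.3 TPM, and the cytokine gene Il6 at 180.3, 198.1 and 169.4. Tnf, another inflammatory cytokine gene, stood at 57.7, 46.8 and 64 TPM. Il6 overlaps the span of an unnamed transcript, A230098N10Rik. Beside Kitl, the ligand genes Csf2, Il3 and Epo had 0 counts, and Csf3 and Thpo did not exceed 3 counts.

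On the surface, 29 of 36 phenotype genes were expressed, with a median of 108.8 TPM. Below Cd34 and Kit came Fcgr3, a low-affinity Fc receptor gene of myeloid progenitors, at 1066, 1253 and 1243 TPM (mean 1187 ± 105 SD, n = 3), and Cd48, a marker of progenitors past the stem cell stage, at 710.2, 847.8 and 890.7 TPM. Both were lowest in replicate 1, as were most expressed list genes on the TPM scale. Markers used to sort stem cells were lower. Ly6a, the Sca-1 gene, had a mean of 122.4 TPM, Procr, the endothelial protein C receptor gene, 82.3 and Slamf1, the CD150 gene, 12, and reads of Ly6a may be shared with its relatives. Cd27 stood at 0.26 TPM, and Prom1, Thy1, Cd200 and Ly6g had 0 counts.

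Homing and adhesion genes were a mixed group. Of 41 chemokine and lipid receptors 18 were expressed, with a median of 0.795 TPM, and of 26 integrins 19 were expressed, with a median of 11.5. For all nuclear protein-coding genes the share was 49.9% and the median 1.26 TPM. Cxcr4, the receptor that holds progenitors in the marrow, stood at 53.6, 68.1 and 74.4 TPM, and its ligand gene Cxcl12 had 0 counts. The sphingosine phosphate receptor gene S1pr1 stood at 46.2, 49 and 49 TPM. Integrin chains beside Itga2b and Itgb3 included Itgb1 (215 ± 13.1 TPM, SD, n = 3), Itga6 (202.2 ± 17.3) and Itgal (179 ± 15.8). The adhesion molecules Pecam1 (318.4 ± 27 TPM) and Icam2 (203 ± 16.1) were the highest of their list, while Vcam1 had 0 counts.

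Of 16 Toll-like receptor genes and their helpers 7 were expressed, with a median of 0.513 TPM, beside 49.9% and 1.26 TPM over all nuclear protein-coding genes. The adaptor gene Myd88 stood at 83.2, 95.9 and 97.9 TPM. Cd180, a receptor-like regulator of Tlr4, stood at 43.6, 45 and 57.1 TPM, and Tlr12 at 38.9, 46.3 and 50.4, both above Tlr4 itself (9.49, 9.71 and 9.39). Tlr1, Tlr5, Tlr8 and Tlr11 had 0 counts.

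Cell cycle genes were expressed in 27 of 28 cases, with a median of 137.8 TPM. Cdk4, the kinase of the G1 phase, stood at 971, 1120 and 1061 TPM, and the replication helicase gene Mcm3 at 526.5, 598.9 and 618.6. The D-type cyclins that activate Cdk4 were ordered Ccnd3 (197.7 ± 19.6 TPM, SD, n = 3), Ccnd2 (144.7 ± 17.8) and Ccnd1 (106.6 ± 9.21). On the deposited lengths their ranges did not overlap, and the ratio of Ccnd3 to Ccnd2 was 1.39, 1.5 and 1.22. That order depends on length (2261 bases for Ccnd3 against 5772 for Ccnd2). By counts Ccnd2 was the higher (6181 to 6948 against 3329 to 4087). Cdk4 and each of these cyclin genes overlap the span of another gene, so their reads are less certain. Inhibitors were also expressed. Cdkn1a, the p21 gene, stood at 549.9, 583.8 and 565.3 TPM, and Cdkn2a, the Ink4a and Arf locus, had a mean of 65.2 TPM. Cdkn2b, its neighbour, did not exceed 3 counts.

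Markers of cells outside the blood were mostly at or near 0 counts. No epithelial gene of 10 was expressed, 7 had 0 counts, and the summed level of the list was 0, 0.148 and 0.323 TPM. Of 12 pluripotency genes only Lin28b, an RNA-binding protein of fetal-type progenitors, was expressed, at 22.9, 27.7 and 29.6 TPM, and Nanog and Sox2 had 0 counts. Among 12 fibroblast and stromal genes only Pdgfrb was expressed, and the collagen genes Col1a1 and Col3a1 had 0 counts. Of 12 endothelial genes 5 were expressed, led by Pecam1 and Tie1 (262 ± 24.9 TPM, SD, n = 3), which blood progenitors also make, while Kdr had 0 counts and Cdh5 did not exceed 3. The fetal liver protein gene Afp stood at 8.44, 8.73 and 9.99 TPM, with Alb at 0 counts.

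Lists of lymphoid, antigen-presenting and monocyte genes were expressed in part. Of 20 B lymphoid genes 3 were expressed and 8 more had over 3 counts but lay under 1 TPM in some library, with a median of 0.17 TPM, and Pax5 and Ms4a1 had 0 counts. Of 30 T and NK genes 10 were expressed, with a median of 0.0985. Lat, an adaptor that mast cells and megakaryocytes also use, stood at 544.8, 647.7 and 651.6 TPM, and Nkg7, a granule membrane gene, at 545.7, 647.9 and 616.3. The granzyme gene Gzmb stood at 72.5, 72.6 and 61.3 TPM. Cd3e had 0 counts, and Cd3d and Cd3g did not exceed 3. Of 18 dendritic and MHC class II genes 8 were expressed, with a median of 0.674 TPM, beside 49.9% expressed and a median of 1.26 TPM over all nuclear protein-coding genes. The class II chain gene H2-Aa did not exceed 3 counts. Of 29 monocyte and macrophage genes 12 were expressed, with a median of 0.344 TPM. Lyz2, the lysozyme gene of these cells, stood at 26.7, 25.4 and 27.1 TPM, and Mpo exceeded it 175.5, 202.9 and 172.8 times. Ly6c2 and C1qa had 0 counts. Of 10 eosinophil genes 2 were expressed, Siglecf (47.9 ± 0.866 TPM) and Il5ra.

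**Figure D5:**
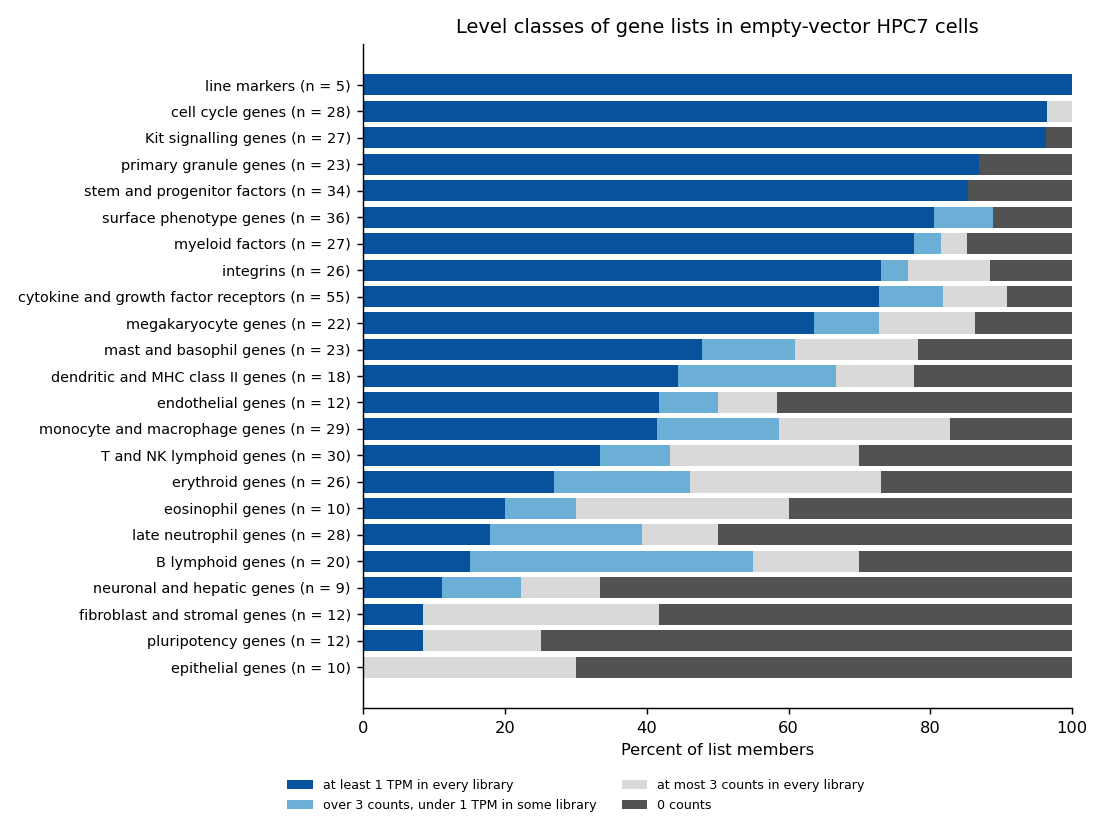
Percent of the members of 23 gene lists in 4 level classes, as stacked bars, with the number of members found in the table beside each list. All 5 line markers and 27 of 28 cell cycle genes are expressed in every library, against 5 of 28 late neutrophil genes and 0 of 10 epithelial genes.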

How the data were processed

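RNA of the 3 empty-vector samples went into TruSeq stranded mRNA libraries, a poly(A)-selecting kit, per the labels' protocols. The deposited table gives each gene's length and its raw counts, from featureCounts on mm10 per the submitters' processing notes. Versions recorded there are limma 3.29.12 and edgeR 3.15.0. Aligner, annotation and strand setting are not given in the sources used here, so overlapping genes cannot be told apart with certainty.

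Entrez identifiers were matched to RefSeq GRCm38.p6, which gave 25275 of 27179 a symbol. TPM were computed from the deposited counts and lengths (Python 3.11.15, pandas 2.3.3), giving mean ± SD over 3 libraries. Dispersion came from edgeR 4.0.16 (R 4.3.3) with an intercept-only model, filterByExpr, TMM and robust estimation. Both were tested on simulated data. No test between groups was run.

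The members and the 42 gene lists were chosen with earlier results of these data known. Of 667 list names, 663 were found and 4 (Hbb-bt, Hbb-b2, Ahsp, Cd244) were not. Named were up to 8 highest genes of a list and those at or under 3 counts, the 25 highest nuclear protein-coding genes over 500 bases long that encode no ribosomal protein, and the 10 most variable genes with at least 100 counts in each library. Genes outside this rule were chosen after their values were seen: Meis1, Hhex, Hlf, Mecom, Klf1, Prtn3, Prss57, Ms4a3, Hdc, Mitf, Ms4a2, Cma1, Tpsb2, Vwf, Treml1, Gp9, Gp1ba, Lcn2, Il3ra, Csf2ra, Csf1r, Tgfbr1, Il9r, Il6ra, Ly6a, Procr, Slamf1, Cd27, Cdkn2a and the Hox genes. A few members of the lists are counted but not reported by name here.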

Additional observations from a re-analysis of the deposited data

How the results depend on the processing

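The number of genes at 1 TPM in every library ranged from 10795 (FPKM on the TMM-scaled size) to 12122 (threshold of 0.5 TPM), against 11526, and from 11608 to 11651 when 1 replicate was left out. Genes at 0 counts ranged from 9833 (without ribosomal RNA, Lars2 and unnamed genes, chosen after seeing the data) to 13573 (at most 3 counts), and from 11399 to 11497 with 1 replicate left out. All stayed within 1.5 times the reported counts. The share of the 100 highest genes moved from 23.3% to 17.9% without mitochondrial, histone and ribosomal protein genes, 15% by counts not divided by length and 17.7% with the longest GENCODE transcript as length (chosen after seeing the data). It was 9.19% for the 10 highest genes and 52% for the 1000 highest, and 20.8% to 24.6% with 1 replicate left out. The median biological coefficient of variation was 6.31%, 7.59% with no filter and 5.17% to 7.92% with 1 replicate left out. FPKM put the levels of the markers and Cpa3 at 0.416 to 0.417 of their TPM by its unit alone, and the other settings at up to 1.3 times it. The planned RefSeq transcript length was not run, because the tables used give no transcript lengths. No paired analysis was possible because the description covers 1 group and no test was made. Depth limits genes at 0 counts to at most 3 counts in each library. Of the 152 listed genes at 0 counts, 102 also had none in the 6 other libraries, so for these the table does not show that the row can collect reads.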

Other observations

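The Hox genes were a sparse family. Of 39 genes in the 4 clusters, 7 were expressed and 21 had 0 counts. The highest were Hoxd4 at 18.4, 19.7 and 18.9 TPM, Hoxb4, a factor known for expanding blood progenitors, at 12, 12.1 and 13 TPM, and Hoxa5 at 7.48, 7.78 and 7.64 TPM. No gene of the Hoxc cluster was expressed, and the summed level of that cluster was 0.366 TPM. Hoxd4, Hoxb4 and Hoxa5 lie within the spans of Hoxd3, Hoxb3 and Hoxa3, so the reads of all these genes are less certain.

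The cells carried transcripts of some genes of the Y chromosome. Eif2s3y stood at 285.3, 295.3 and 299.6 TPM, Ddx3y at 184, 210.4 and 217.5 and Uty at 67.4, 75.3 and 75. Kdm5d and Usp9y, which lie on the same chromosome, had 0 counts in these 3 libraries and in the 6 others of the series. Their rows are therefore not shown to collect reads, and absence from the cells cannot be read from them. Xist did not exceed 3 counts. Of 110 genes placed on the Y chromosome 4 were expressed and 106 had 0 counts.

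Genes of the repressor partners of Lsd1 were expressed in 9 of 11 cases. Kdm1a, the Lsd1 gene, stood at 147.8, 165.4 and 168.7 TPM, and its span overlaps that of Luzp1. Gfi1b, a factor that recruits Lsd1, stood at 86.5, 93.1 and 102.5 TPM, above its relative Gfi1 (8.77, 8.08 and 7.75). The corepressor genes Rcor1 and Rcor2 were near each other at 81.5 ± 10.5 and 86.7 ± 4.34 TPM (SD, n = 3). Snai1 itself had a mean of 1.25 TPM, a gene chosen after its value was seen, and Snai2 had 0 counts.

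Imprinted growth genes were low. Of 14 listed, 4 were expressed, led by Cdkn1c at 7.55 ± 0.893 TPM (SD, n = 3), and H19, Meg3, Dlk1, Peg3, Snrpn, Peg10 and Ndn had 0 counts.

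The genes that varied most between the libraries, by edgeR's tagwise coefficient, were led by those that stood apart in replicate 1. Of the 10 highest, 6 had no symbol. The others were mt-Rnr2 (a coefficient of 120.7%), mt-Rnr1 (108.3%), Lars2 (95.8%) and Tpt1 (47.6%), against a median of 6.04% over 9876 genes. Tpt1, a translationally controlled protein gene with several processed copies in the genome, differed in another library, with 1431, 1373 and 531 counts in replicates 1, 2 and 3. Among the lists, the immediate-early and stress genes had the highest median coefficient at 13%. The 5 line markers had a median of 12.75%, but the tagwise coefficient is moderated towards genes of similar level and is not each gene's own spread. In TPM the markers varied little, at 4840 ± 269 for Mpo, 1967 ± 93.4 for Cd34 and 1683 ± 80.9 for Kit (SD, n = 3). Gata2 was at 191.9 ± 2.54 TPM and Lhx2 at 43.2 ± 1.18. Junb stood at 113.7, 91.5 and 71.9 TPM, highest in replicate 1.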
